A study of Mus musculus with 9 samples.

Results

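The genes described here carry proteins into the endoplasmic reticulum (ER), fold them there and move them by vesicles between the ER and the Golgi. Of 60 such genes, 55 were measured by at least 1 probe set that names the gene alone, with 112 probe sets in all, among 12393 genes and 22626 probe sets. No probe set named Sec61g, Srp54a, Srp72, Sec24a or Tmed2 alone, and these 5 genes are not described. The 55 genes fell into 18 for targeting and translocation, 10 chaperones, 9 genes of the COPII coat, 9 of the COPI coat, and 9 cargo receptors and SNAREs. For each gene the values are those of its brightest probe set, the one with the highest mean over all arrays, and the other probe sets are given where single genes are described. All values are log2 intensities per probe set, on which a difference of 1 is a doubling.

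MLP29 is a mouse hepatic progenitor cell line, a model of epithelial liver progenitors in which all cells descend from 1 line. In each of 3 independent experiments, cells kept in 0.1% serum for at least 16 h received 10 µg/ml of the anti-α5β1 integrin antibody BMB5 (antibody), received 20 ng/ml of HGF/SF1, the ligand of the receptor Met, or were left untreated. The treatments lasted 24 h, and RNA of each plate was hybridised to 1 Affymetrix Mouse430A_2 array, giving 9 arrays and 3 per condition, and this number sets how precise any value can be. α5β1 integrin is the fibronectin receptor, and the study compared the transcriptional response to its blockade with that to HGF/SF1. All cells shared the serum starvation. The methods list an IgG antibody among the controls used in the study but do not say that any array received it, so on these arrays blockade of the integrin and the mere addition of an antibody cannot be told apart.

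Array medians were between 5.91 and 6.08. The epithelial keratins Krt8, Krt18 and Krt19 were at high values on all arrays, whereas Epcam and the hepatocyte gene Alb were at low values, with means of 4.34 and 4.01. Between antibody-treated and untreated cells the 3 keratins differed by -0.15, -0.13 and -0.31, without overlap for Krt8 and Krt19. Summed over the 10 liver epithelial and progenitor markers, the level was 15.24 to 15.34 on antibody arrays. It was 15.34 to 15.53 on HGF/SF1 arrays and 15.40 to 15.57 on untreated arrays. Summed over the 8 leukocyte markers, the level was 10.67 to 12.38 on antibody arrays and 11.74 to 12.23 on untreated arrays. The leukocyte gene Cd14 made up most of it, whereas Ptprc was at a mean of 3.25. Between antibody-treated and untreated cells no marker in any of the 5 cell type lists passed an unadjusted p of 0.05 without a block. Sox9, of the list of liver epithelial and progenitor genes, had values of 5.03, 5.99 and 6.44 in antibody-treated cells, 4.61, 4.98 and 5.02 in HGF/SF1-treated cells and 4.86, 4.83 and 5.76 in untreated cells. It passed that threshold against HGF/SF1-treated cells (0.96 ± 0.38, adjusted p = 0.326 in limma) and, with the experiment as a block, also against untreated cells (0.67, adjusted p = 0.191 in limma). As a measure of RNA quality, the Gapdh probe set at the 3′ end minus that at the 5′ end gave -0.32 to -0.06 over the arrays. For actin this difference was 0.23, 0.37 and 0.24 on antibody arrays, 0.30, 0.75 and 0.61 on HGF/SF1 arrays and 0.23, 0.87 and 0.20 on untreated arrays, lower with the antibody than with HGF/SF1 in each experiment. The parts of other cells and of RNA quality in the results below were not tested.

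A protein destined for secretion or for a membrane is recognised as it is made by the signal recognition particle (SRP), which docks on its receptor at the ER, and the chain is threaded through the Sec61 channel, where signal peptidase removes the signal peptide. In the ER lumen, chaperones and protein disulfide isomerases fold the chain. Vesicles with a COPII coat take folded cargo toward the Golgi, and vesicles with a COPI coat bring escaped ER proteins and receptors back. Hepatocytes, which secrete most plasma proteins, rely heavily on this route.

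RNA of many genes of this route was lower in antibody-treated than in untreated cells. "Lower" and "higher" are used below of genes at an unadjusted p below 0.05 in limma without a block, where nothing else is said. At that threshold, 24 of the 55 genes were lower and 0 were higher in antibody-treated than in untreated cells, whereas over all 12393 genes 7.92% were lower, 4.68% were higher and 12.6% passed in either direction. The median log2 difference was -0.30 over the 55 genes and -0.00 over all genes, with a range of -1.09 to 0.24 over the 55 genes. The difference was negative for 49 genes and positive for 6. It exceeded a 2-fold decrease for Lman2 and Sec24d. In these bulk samples, fewer cells of a type and less RNA per cell cannot be told apart.

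No single gene of the 55 passed a Benjamini-Hochberg adjusted p of 0.05 over all 22626 probe sets, and the smallest adjusted p was 0.122, for Bet1 and Sec24d. Over all genes, 0.0403% passed that threshold. With the experiment as a replicate block, 34 of the 55 genes were lower and 1 higher at the unadjusted threshold, against 18.5% of all genes in either direction. At the adjusted threshold 0 of the 55 passed with this block, against 15 of all 12393 genes. The 55 genes were bright, with a median at the 90.6 percentile of all genes. Of the 48 above the 75th percentile of brightness, 22 were lower, against 11.8% of all genes above it, a setting chosen after the data were seen.

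The decrease was found in each experiment. The median difference between antibody-treated and untreated cells was -0.22 in experiment 1, -0.38 in experiment 2 and -0.45 in experiment 3, with negative values for 43, 48 and 49 genes. For 25 of the 55 genes every antibody array was below every untreated array, which held for 8.80% of all genes. For 39 genes the value was lower with the antibody in 3 of 3 experiments, against 18.9% of all genes. Without experiment 2 the median was -0.31 and 9 genes were lower, against 2.22% of all genes in the same fit. Without experiment 3 the median was -0.29 and 10 genes were lower, against 4.32% of all genes.

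Over the 55 genes together, HGF/SF1 gave no comparable difference. In experiment 1, however, the cargo receptors and SNAREs had a median difference from untreated cells of -0.23 with HGF/SF1 and of -0.23 with the antibody. Their medians in experiments 2 and 3 were 0.03 and -0.10 with HGF/SF1, against -0.42 and -0.49 with the antibody. Of the 55 genes, 0 passed the unadjusted threshold in limma between HGF/SF1-treated and untreated cells, against 0.839% of all genes, and the median difference was -0.01 with 25 positive and 30 negative values. With the replicate block 1 gene, Kdelr2, was lower, against 1.66% of all genes. Between antibody-treated and HGF/SF1-treated cells, 25 genes were lower and 0 higher, against 8.96% lower, 5.19% higher and 14.1% in either direction over all genes. The median difference was -0.34, and within experiments 1, 2 and 3 it was -0.17, -0.43 and -0.36. With the replicate block 30 were lower and 2 higher, Sec24b and Srp68, against 20.3% of all genes in either direction. This comparison shares its antibody arrays with that against untreated cells, just as both comparisons against untreated cells share the untreated arrays. Spcs1 (-0.37) and Copb2 (-0.33) passed here and not against untreated cells, and Kdelr1 (-0.11) did not pass here, and these contrasts between comparisons were not tested. The adjusted threshold was passed by 0 of the 55 genes between antibody and HGF/SF1, against 0.0242% of all genes. With the replicate block it was passed by Bet1 (adjusted p = 0.0417), Sec31a (adjusted p = 0.0417) and Sec24d (adjusted p = 0.0488) in limma, against 1.13% of all genes.

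**Figure D1:**
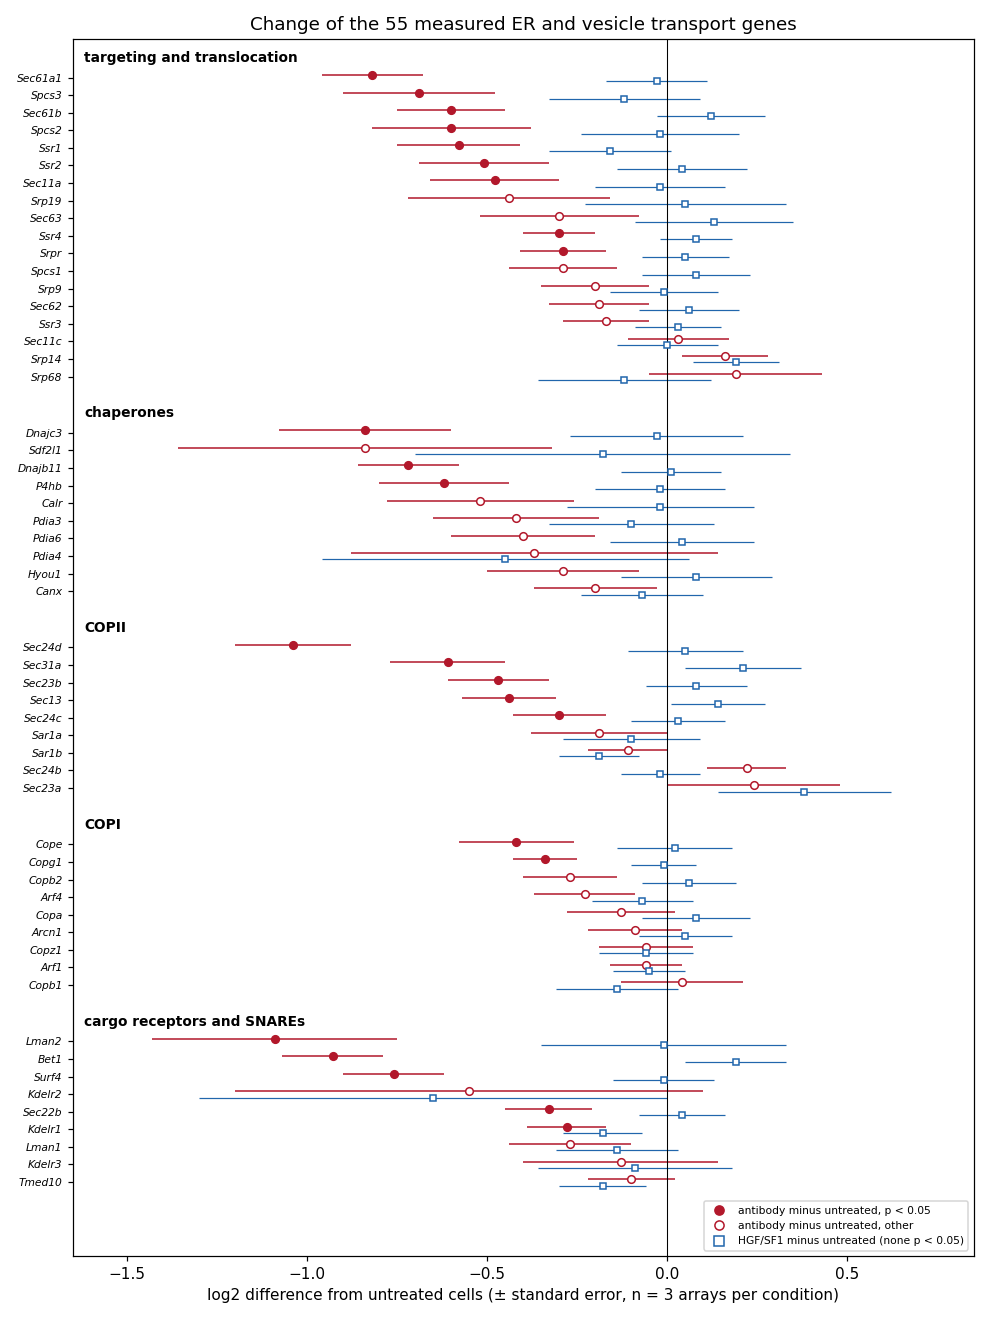
Log2 difference from untreated cells (horizontal axis) of the 55 genes in 5 groups, for antibody-treated cells (circles, filled at an unadjusted p below 0.05) and HGF/SF1-treated cells (squares), with standard errors from limma. The 24 filled circles all lie left of 0, whereas the squares lie on both sides of 0.

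The groups differed in their medians between antibody-treated and untreated cells. The chaperones had a median of -0.47, the cargo receptors and SNAREs of -0.33, the COPII genes and the targeting and translocation genes of -0.30 each, and the COPI genes of -0.13. Of the 18 targeting and translocation genes 9 were lower, of the 10 chaperones 3, of the 9 COPII genes 5, of the 9 COPI genes 2, and of the 9 cargo receptors and SNAREs 5. Over all genes 7.92% were lower in the same fit, and this share also stands beside the counts for parts of these groups below. The experiment as a replicate block raised the count to 7 for the chaperones and to 4 for the COPI genes, and with this block 10.7% of all genes were lower. Differences between the groups were not tested.

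**Figure D2:**
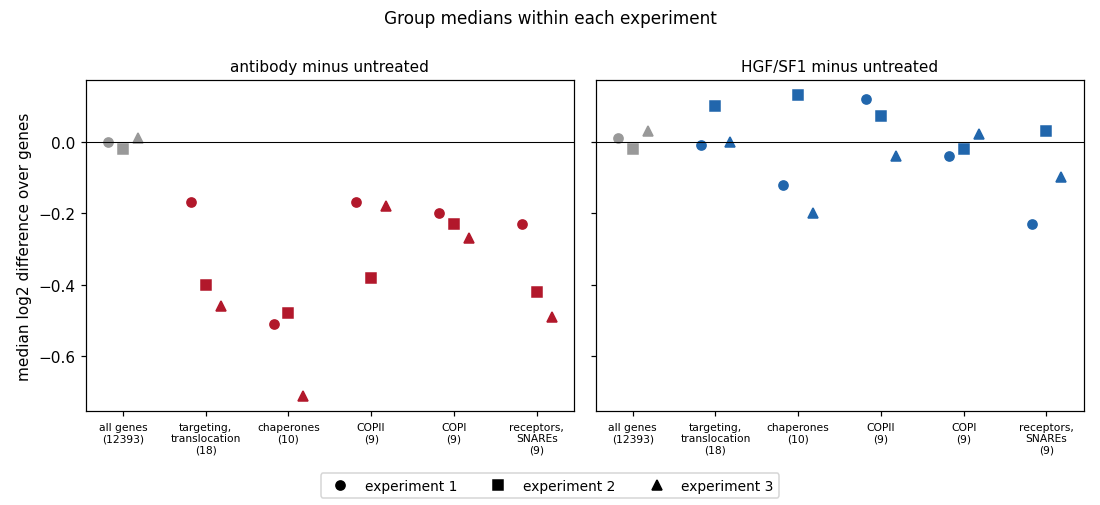
Median log2 difference from untreated cells (vertical axis) over the genes of each group and over all genes, 1 point per experiment, for antibody-treated cells (left) and HGF/SF1-treated cells (right). Every group median lies below 0 in every experiment with the antibody, from -0.17 to -0.71, whereas those with HGF/SF1 lie between -0.23 and 0.13.

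Of the 5 measured genes of SRP and its receptor, 1 was lower, against 7.92% of all genes. Srpr, a subunit of the SRP receptor, had log2 values of 10.05, 9.91 and 10.14 in antibody-treated cells, against 10.25, 10.27 and 10.45 in untreated cells. The groups did not overlap, and the difference was -0.29 ± 0.12 (SE), but it passed in only 7 of 20 refits with other settings. The SRP subunits Srp9, Srp14, Srp19 and Srp68 did not pass, with differences of -0.20, 0.16, -0.44 and 0.19. Srp19 passed with the replicate block, at a standard error of 0.16 (adjusted p = 0.208 in limma). A dimmer probe set of Srp9 was lower, at -0.91 ± 0.22, whereas the 4 probe sets of Srp14 were between -0.10 and 0.20. The difference was negative for each probe set of Srp9, but the brightest one had overlapping values and did not pass.

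The channel genes Sec61a1 and Sec61b were lower. Sec61a1, which forms the pore of the translocon, had values of 11.15, 10.91 and 10.85 in antibody-treated cells, 11.55, 11.82 and 11.91 in HGF/SF1-treated cells and 11.65, 11.73 and 11.98 in untreated cells. All antibody arrays were lower than the other 6, and the decrease against untreated cells was 1.76-fold (-0.82 ± 0.14, SE, adjusted p = 0.157 in limma). Of its 6 probe sets, all had negative differences and 3 passed, at -0.82, -1.02 and -0.84. Sec61b, the small β subunit, had values of 11.57, 11.02 and 11.03 in antibody-treated cells, against 11.82, 11.79 and 11.80 in untreated cells, a difference of -0.60 ± 0.15 without overlap. Sec62 and Sec63, which assist the channel, did not pass by their brightest probe sets, at -0.19 and -0.30. Sec63 passed with the replicate block (adjusted p = 0.274 in limma), and another of its probe sets was lower without it, at -0.46 ± 0.10.

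The TRAP complex sits beside the channel and helps chains enter it, and 3 of its 4 subunits were lower. Ssr1 had values of 10.74, 10.46 and 10.13 in antibody-treated cells, against 10.98, 10.89 and 11.21 in untreated cells, a difference of -0.58 ± 0.17. The antibody array of experiment 3 was the lowest, and the groups did not overlap. Ssr2 was lower at -0.51 and Ssr4 at -0.30, both without overlap, whereas Ssr3 was at -0.17 with overlapping values. For Ssr4 only the brightest of 3 probe sets passed, the others being at 0.19 and -0.05.

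Of the 5 signal peptidase genes, Spcs2, Spcs3 and the catalytic subunit Sec11a were lower. Spcs3 had values of 10.07, 9.41 and 9.18 in antibody-treated cells, against 10.28, 10.07 and 10.37 in untreated cells, a difference of -0.69 ± 0.21. The first antibody array reached the lowest untreated array, and the other antibody arrays lay below all untreated arrays. Spcs2 was lower by 1.51-fold (-0.60 ± 0.22) and Sec11a by 1.39-fold (-0.48 ± 0.18). Sec11c, the other catalytic subunit and the dimmest gene of the group, did not pass, at 0.03 ± 0.14. Spcs1, the brightest gene of the group, was at -0.29 and passed by another probe set (-0.30 ± 0.12), and by the brightest one with the replicate block (adjusted p = 0.225 in limma).

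**Figure D3:**
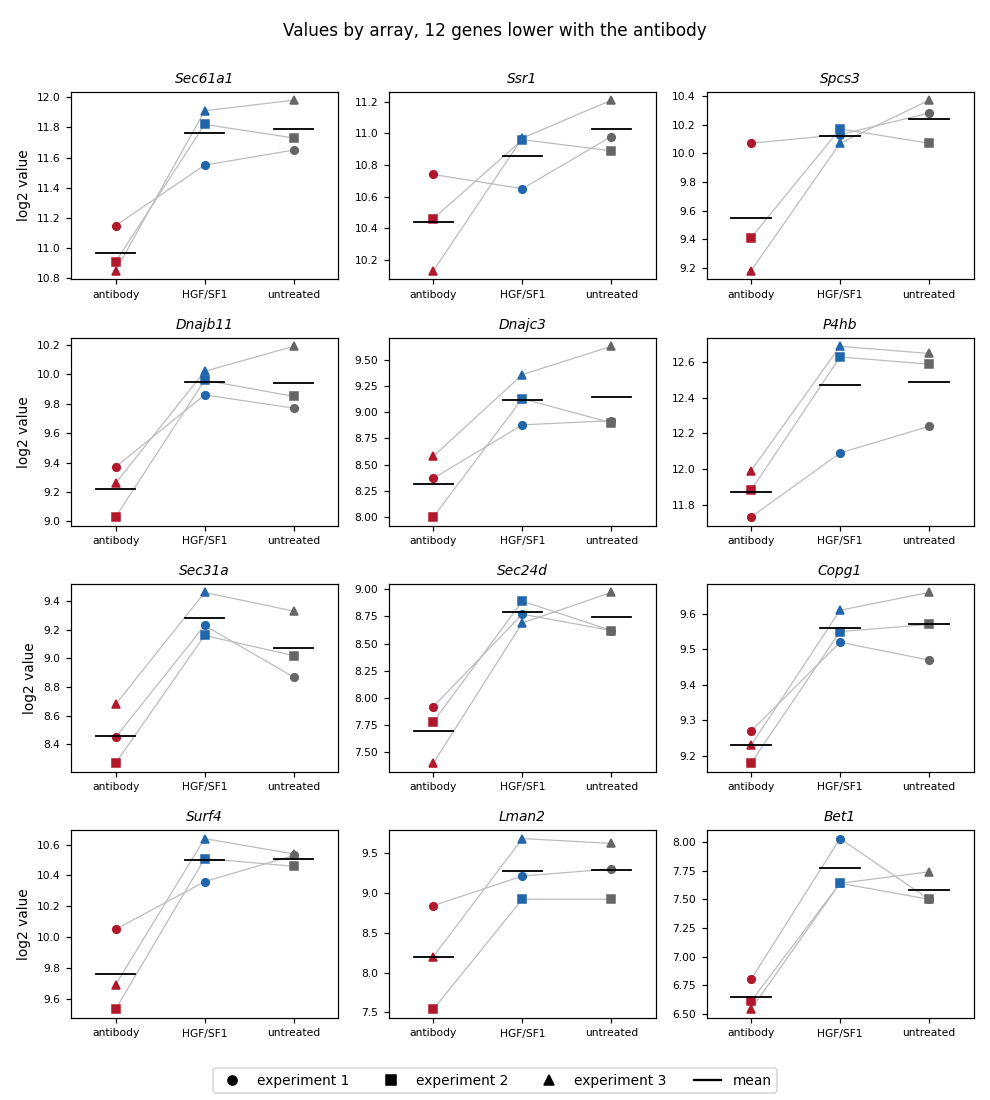
Log2 value (vertical axis) of 12 genes on each array in antibody-treated, HGF/SF1-treated and untreated cells, with grey lines joining arrays of 1 experiment and black bars at the means. The antibody arrays lie below those of the other conditions, except that the first antibody array of Spcs3 and of Ssr1 lies among the HGF/SF1 or untreated arrays.

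All 10 chaperones had negative differences. Dnajb11, a co-chaperone of BiP, had values of 9.37, 9.03 and 9.26 in antibody-treated cells, 9.86, 9.96 and 10.02 in HGF/SF1-treated cells and 9.77, 9.85 and 10.19 in untreated cells. The antibody arrays were lowest, and the decrease was 1.64-fold against untreated cells (-0.72 ± 0.14, adjusted p = 0.170 in limma). Dnajc3, a co-chaperone also known as an inhibitor of the kinase PERK, had values of 8.37, 8.00 and 8.58 in antibody-treated cells, against 8.92, 8.90 and 9.63 in untreated cells. The decrease was 1.79-fold (-0.84 ± 0.24), and all 5 of its probe sets were lower, from -0.84 to -1.13. P4hb, a protein disulfide isomerase and the brightest chaperone, had values of 11.73, 11.88 and 11.99 in antibody-treated cells, against 12.24, 12.59 and 12.65 in untreated cells. The groups were apart, with a difference of -0.62 ± 0.18.

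The other 7 chaperones did not pass, with differences from -0.84 to -0.20. With the replicate block Pdia3 (adjusted p = 0.149), Pdia6 (adjusted p = 0.119), Calr (adjusted p = 0.137) and Sdf2l1 (adjusted p = 0.164) were lower in limma at the unadjusted threshold. Pdia4, Canx and Hyou1 did not pass with the block by their brightest probe sets. The dimmest probe set of Canx did (-0.58, adjusted p = 0.0808 in limma), whereas the remaining one was at -0.14 and did not. The dimmer probe sets of Hyou1 also passed with the block (-0.79, adjusted p = 0.274, and -0.80, adjusted p = 0.193, in limma). Calr, a lectin chaperone for glycoproteins, had values of 11.45, 11.56 and 12.27 in antibody-treated cells, against 11.97, 12.39 and 12.47 in untreated cells. The ranges overlapped, but within each experiment the antibody array was lower. Canx, the membrane-bound relative of Calr, had values of 11.27, 11.91 and 11.68 in antibody-treated cells, against 11.79, 11.76 and 11.93 in untreated cells, and the second antibody array was above its untreated array. Sdf2l1, which assists BiP, had values of 7.32, 7.54 and 8.31 in antibody-treated cells, against 7.94, 8.11 and 9.63 in untreated cells. In both conditions its value was highest in experiment 3. Pdia4, the dimmest chaperone, was at -0.37 ± 0.51 and varied in the same way. For Pdia6 a dim probe set, at a mean of 5.26, was higher in antibody-treated than in HGF/SF1-treated cells (1.08), against the direction of the bright one.

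**Figure D4:**
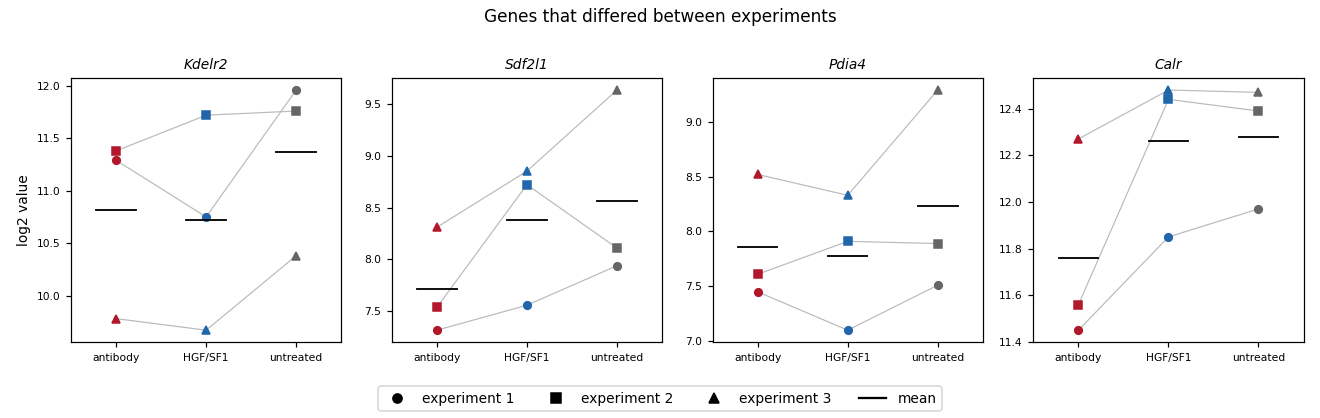
Log2 value (vertical axis) on each array of 4 genes whose level varied between experiments, with grey lines joining arrays of 1 experiment and black bars at the means. Within each experiment the antibody array of Kdelr2, Sdf2l1, Pdia4 and Calr lies below the untreated array, while the conditions overlap.

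Promoter windows of 250 bases before and 50 bases after the start site, from RefSeq (GRCm38.p6), were at hand for 45 of the 55 genes. They were searched on both strands for the ER stress response element (ERSE, the half-sites CCAAT and CCACG with 9 bases between them) and for the unfolded protein response element (UPRE, TGACGTGG). The end of ERSE can overlap a UPRE on the other strand, but no gene of the 45 held both motifs. ERSE was found in 4 of the 45 genes (8.89%), all of them chaperones (44.4% of the 9 with a window). It was found in 0.137% of the 27025 genes with a window, and in 0.182% of the 9887 of these on the array. UPRE was found in Sec23a, Sec24d, Copb1, Copb2, Arf1 and Kdelr3 (13.3% of the 45), against 0.714% of all genes and 1.04% of those on the array. A match describes the letters only, and of these 10 genes Dnajc3 and Sec24d were lower with the antibody in the comparison without a block. The 250 bases before the start are printed for the 4 ERSE genes and for Sec24d, the COPII gene with the largest decrease, on the strand of the gene with the motif bases in capitals.
Dnajc3, chr14:118937682-118937931, + strand, ERSE at -105 to -87: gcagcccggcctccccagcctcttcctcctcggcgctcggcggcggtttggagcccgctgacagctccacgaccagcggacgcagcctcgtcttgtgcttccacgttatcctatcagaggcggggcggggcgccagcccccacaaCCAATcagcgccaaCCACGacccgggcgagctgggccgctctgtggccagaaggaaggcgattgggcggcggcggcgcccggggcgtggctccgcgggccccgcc
Pdia6, chr12:17266339-17266588, + strand, ERSE at -98 to -80: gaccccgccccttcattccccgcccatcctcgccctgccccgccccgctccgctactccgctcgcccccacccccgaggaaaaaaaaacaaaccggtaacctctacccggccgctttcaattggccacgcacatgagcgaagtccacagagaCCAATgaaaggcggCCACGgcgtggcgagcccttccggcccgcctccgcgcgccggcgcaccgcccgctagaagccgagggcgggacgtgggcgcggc
Calr, chr8:84846932-84847181, - strand, ERSE on the other strand at -162 to -144: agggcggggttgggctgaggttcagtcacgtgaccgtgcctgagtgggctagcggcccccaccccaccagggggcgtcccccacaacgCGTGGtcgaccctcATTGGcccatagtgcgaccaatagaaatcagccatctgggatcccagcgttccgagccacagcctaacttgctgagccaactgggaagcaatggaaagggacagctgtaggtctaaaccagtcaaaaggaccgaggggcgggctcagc
Canx, chr11:50325674-50325923, - strand, ERSE at -145 to -127: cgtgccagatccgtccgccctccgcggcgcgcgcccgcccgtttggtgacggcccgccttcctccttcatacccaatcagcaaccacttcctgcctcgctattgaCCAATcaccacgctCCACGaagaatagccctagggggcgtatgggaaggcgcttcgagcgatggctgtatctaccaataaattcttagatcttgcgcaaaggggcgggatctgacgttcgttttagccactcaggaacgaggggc
Sec24d, chr3:123267246-123267495, + strand, UPRE at -26 to -19: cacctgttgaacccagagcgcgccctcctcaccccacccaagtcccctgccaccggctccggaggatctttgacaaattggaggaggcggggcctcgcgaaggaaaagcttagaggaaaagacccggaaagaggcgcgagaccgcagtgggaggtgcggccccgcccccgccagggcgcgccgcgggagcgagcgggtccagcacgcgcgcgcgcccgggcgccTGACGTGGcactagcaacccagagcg

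Of the 9 COPII genes 5 were lower, all of them subunits of the coat. Sec24d, one of the Sec24 paralogues that select cargo, had values of 7.92, 7.78 and 7.40 in antibody-treated cells, 8.77, 8.89 and 8.69 in HGF/SF1-treated cells and 8.62, 8.62 and 8.97 in untreated cells. The antibody arrays were far below the other 6, with a decrease of 2.05-fold against untreated cells (-1.04 ± 0.16, adjusted p = 0.122 in limma). Its paralogue Sec24b had values of 8.53, 8.71 and 8.65 in antibody-treated cells, against 8.20, 8.51 and 8.51 in untreated cells. Every antibody array of Sec24b was above the untreated arrays, and its difference of 0.22 ± 0.11 passed with the replicate block (adjusted p = 0.263 in limma) and not without it. Sec24c was lower, at -0.30 ± 0.13, but passed in only 8 of 20 refits with other settings.

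The outer coat is a cage of Sec13 and Sec31. Sec31a had values of 8.45, 8.27 and 8.68 in antibody-treated cells, 9.23, 9.16 and 9.46 in HGF/SF1-treated cells and 8.87, 9.02 and 9.33 in untreated cells. The antibody arrays were lowest in every experiment, with differences of -0.61 ± 0.16 from untreated and -0.82 ± 0.16 from HGF/SF1-treated cells. Sec13 was lower by 1.36-fold (-0.44 ± 0.13), without overlap. The inner coat paralogues were not alike, as Sec23b was lower at -0.47 ± 0.14, whereas Sec23a, the dimmest COPII gene, was at 0.24 ± 0.24 with overlapping values. The GTPases that start the coat, Sar1a (the brightest COPII gene) and Sar1b, did not pass, at -0.19 and -0.11, although a dimmer probe set of Sar1a was lower at -0.56 ± 0.21.

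Of the 9 COPI genes, 2 were lower, against 7.92% of all genes. Copg1, the γ1 subunit and the dimmest gene of the group, had values of 9.27, 9.18 and 9.23 in antibody-treated cells, against 9.47, 9.57 and 9.66 in untreated cells. The groups did not overlap, with a difference of -0.34 ± 0.09, and its other probe set was at -0.72 ± 0.19. Cope, the ε subunit, had values of 10.57, 10.52 and 10.40 in antibody-treated cells, against 10.77, 11.05 and 10.93 in untreated cells, a difference of -0.42 ± 0.16. Copa, Copb1, Copz1 and Arcn1, also coat subunits, were at -0.13, 0.04, -0.06 and -0.09, with overlapping values. Copb2 was at -0.27 and passed against HGF/SF1-treated cells (-0.33 ± 0.13). Arf1, the GTPase that recruits the coat and the brightest of all 55 genes, had values of 12.34, 12.38 and 12.33 in antibody-treated cells, against 12.33, 12.47 and 12.44 in untreated cells. Its difference of -0.06 ± 0.10 did not exceed the spread. Arf4 was at -0.23 and passed with the replicate block (adjusted p = 0.257 in limma), as did Copb2 (adjusted p = 0.172).

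Among the cargo receptors, Lman2, a lectin that carries glycoproteins, had values of 8.84, 7.54 and 8.20 in antibody-treated cells, against 9.30, 8.92 and 9.62 in untreated cells. The antibody arrays were spread widely but all lay below the untreated arrays, a decrease of 2.12-fold (-1.09 ± 0.34), the largest of the 55 genes. Its other probe set was at -1.01 ± 0.23. Surf4, a receptor for soluble cargo, had values of 10.05, 9.53 and 9.69 in antibody-treated cells, 10.36, 10.51 and 10.64 in HGF/SF1-treated cells and 10.53, 10.46 and 10.54 in untreated cells. Its decrease was 1.69-fold against untreated cells (-0.76 ± 0.14, adjusted p = 0.162 in limma), and all 5 of its probe sets were lower, from -0.45 to -0.90. Lman1, another lectin receptor, was at -0.27 by its brightest probe set and between 0.05 and 0.23 by the other 3, so no direction can be given. Tmed10, a p24 protein of the same vesicles, was at -0.10 ± 0.12.

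The KDEL receptors return escaped ER chaperones. Kdelr1 had values of 10.00, 9.84 and 10.06 in antibody-treated cells, 9.99, 10.23 and 9.98 in HGF/SF1-treated cells and 10.22, 10.29 and 10.23 in untreated cells. It was lower than in untreated cells at -0.28 ± 0.11, but overlapped the HGF/SF1 arrays. Kdelr2, the brightest gene of the group, had values of 11.29, 11.38 and 9.78 in antibody-treated cells, 10.75, 11.72 and 9.67 in HGF/SF1-treated cells and 11.96, 11.76 and 10.38 in untreated cells. Both treatments were below untreated cells in each experiment, and the values of experiment 3 were the lowest throughout. Only with the replicate block did Kdelr2 pass, at -0.55 with the antibody (adjusted p = 0.227 in limma) and -0.65 with HGF/SF1 (adjusted p = 1.00 in limma). Kdelr3 was at -0.13 ± 0.27.

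SNAREs fuse the vesicles with their target membrane. Bet1, the dimmest of the 55 genes, had values of 6.80, 6.61 and 6.54 in antibody-treated cells, 8.03, 7.64 and 7.64 in HGF/SF1-treated cells and 7.50, 7.50 and 7.74 in untreated cells. The antibody arrays were well below the other 6, with a 1.90-fold decrease against untreated cells (-0.93 ± 0.14, adjusted p = 0.122 in limma) and a log2 difference of -1.12 ± 0.14 from HGF/SF1-treated cells. Its dimmer probe set was at -0.24 and did not pass against untreated cells. Sec22b was lower by its brightest probe set (-0.33 ± 0.12) and by the other (-0.53 ± 0.19).

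Over all 112 probe sets of the 55 genes, 43 were lower and 0 higher in antibody-treated than in untreated cells at the unadjusted threshold in limma, against 7.29% lower and 4.53% higher over all 22626 probe sets, and the 43 belonged to 28 genes. Srp9, Sec63, Spcs1 and Sar1a were the 4 genes lower by a probe set other than the brightest only. Of the 30 genes with several probe sets, 20 had negative differences for all of them, 9 had both directions and 1, Sec24b, had positive differences for all. With HGF/SF1, 0 of the 112 probe sets passed, against 0.849% of all probe sets.

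**Figure D5:**
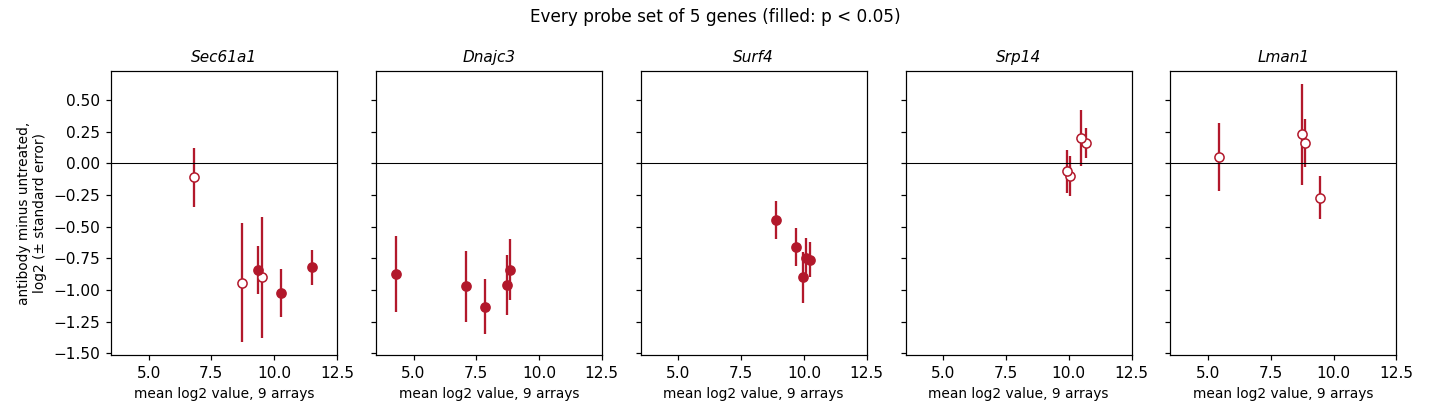
Log2 difference of antibody-treated from untreated cells with its standard error (vertical axis) against the mean log2 value over 9 arrays (horizontal axis), for every probe set of Sec61a1, Dnajc3, Surf4, Srp14 and Lman1, filled at an unadjusted p below 0.05. All probe sets of the first 3 genes lie below 0, whereas those of Srp14 and Lman1 lie on both sides.

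Further genes of the same routes, 119 in all, had a median difference of -0.23 between antibody-treated and untreated cells, with 35 lower and 2 higher, against 7.92% lower and 4.68% higher over all genes. These lists, like the 55 genes, were chosen with earlier results of these data known. Of 20 other translocation and glycosylation genes 8 were lower and 1 higher, led by Tram1 (-1.08 ± 0.22), a protein beside the channel, Dad1 (-0.73 ± 0.15), a subunit of the oligosaccharyltransferase, and Ostc (-1.06 ± 0.26), also of that enzyme. Of 38 other folding and degradation genes 15 were lower and 0 higher. Selenos, which helps to extract misfolded proteins, had values of 10.03, 9.55 and 9.86 in antibody-treated cells, against 10.98, 11.07 and 11.56 in untreated cells. This was a difference of -1.39 ± 0.20 without overlap, and Dnajc10 (-0.86) and the ATPase Vcp (-0.53) were lower too.

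Of 38 other COPII and ER exit genes 9 were lower and 0 higher, with Scfd1 at -0.53 ± 0.08, Gosr2 at -0.64 ± 0.11 and Yipf5 at -0.78 ± 0.14. With the replicate block 15 were lower and 1 higher. Of 23 other COPI and retrograde genes 3 were lower and 1 higher, set against the same 7.92% and 4.68% of all genes, and their median was -0.08. The SNARE Bnip1 was the higher one, with values of 7.72, 8.06 and 7.99 in antibody-treated cells, against 6.85, 7.37 and 6.85 in untreated cells. Its antibody arrays lay above all others, with a difference of 0.90 ± 0.17, while Arf2 (-0.67) and Scamp2 (-0.79) were lower.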

How the data were processed

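RNA of 9 MLP29 cultures was measured on Affymetrix Mouse430A_2 arrays. The authors used affylmGUI on the 9 arrays jointly, corrected background by rma, and deposited log2 values per probe set; how arrays were scaled to each other and how probes were summarised is not given in the sources used here. After 64 control probe sets were left out, limma (version 3.58.1, R 4.3.3) was fitted to 22626 probe sets with 1 mean per condition and no block, and p-values were adjusted by Benjamini-Hochberg over all of them. Of the probe sets, 20380 named 1 gene, 691 several and 1555 none in the platform annotation. The samples of 1 experiment share a date in their titles, which pairs them. Deviations of arrays of the same experiment from their condition means correlated at 0.0958 to 0.591, against -0.484 to 0.0308 between experiments. Deviations from a mean of 3 arrays sum to 0, which by itself pulls the values between experiments below 0. The gap between the ranges therefore overstates the likeness within experiments. Alternatives were the experiment as a replicate block (fixed or random), other scalings, a brightness filter and the mean over probe sets. Further ones were an intensity trend, 2 conditions only, a stricter threshold, and leaving out arrays or experiments. Fits were tested on simulated data with independent arrays, which lacked the likeness of arrays of 1 experiment. Members and lists were chosen with earlier results of these data known. Named genes were all members past an unadjusted p of 0.05 by any probe set, the brightest and dimmest of each group and those with the largest change in each direction, and up to 3 genes of each further list by p. Genes that the rule did not name were described after their values were seen.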

Additional observations from a re-analysis of the deposited data

How the results depend on the processing

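The count of lower genes between antibody-treated and untreated cells (24) was between 9 and 25 when 1 array or 1 experiment was left out, and 12 at an unadjusted p of 0.01. The share of all genes lower in this comparison fell too, from 7.92% to 2.22% without experiment 2 and to 4.32% without experiment 3. Between antibody-treated and HGF/SF1-treated cells (25) it was between 9 and 27 with an array or experiment left out, lowest without experiment 2, 14 without experiment 3 and 16 without the second HGF/SF1 array, and 12 at an unadjusted p of 0.01. With the replicate block the counts in either direction were 35 and 32, against 18.5% and 20.3% of all genes. With a random block they were 30 and 29. Under the other alternatives they were 19 to 25 and 20 to 27. Between HGF/SF1-treated and untreated cells the count of 0 was 1 with the replicate block and 0 to 2 with an array or experiment left out (2 without the second HGF/SF1 array, 1 without the second untreated array), and the median of -0.01 was between -0.07 and 0.08. The medians of -0.30 and -0.34 stayed between -0.38 and -0.25 and between -0.41 and -0.30. For the other settings no share over all genes was taken, so their counts cannot be set against all genes. The causes were not tested.

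Of the genes lower in the 2 antibody comparisons, 0 changed sign under the 20 alternatives that refit the model. Bet1, Dnajb11, Dnajc3, Sec13, Sec24d, Sec61a1 and Surf4 passed in all 20 against untreated cells, and Bet1, Dnajb11, Sec13, Sec24d, Sec31a, Sec61a1, Sec61b and Surf4 against HGF/SF1-treated cells. Against untreated cells, Srpr and Sec24c passed in the fewest of the 20, 7 and 8. Centring each array on its median took Srpr, Ssr4, Sec24c, Kdelr1 and Sec22b out of the 24. With 3 arrays per condition, differences of the smaller size seen here rest on few values, and dim probe sets, such as the dim ones of Srpr and Spcs1 at means of 3.94 and 3.84, lay at the low end of the arrays.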
